A study of Mus musculus with 12 samples.

Results

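The 35 genes described here encode the enzymes and transporters of glycolysis, the kinases that set its flux, the alpha subunits of hypoxia-inducible factor (HIF) and genes known to be induced by low oxygen, and they were chosen by name. Of the 35, 32 had a probe on the Illumina MouseWG-6 v2.0 BeadChip, among 19057 genes with a probe on the array, and each gene was read from its probe with the highest mean over all arrays. The expression of *Hk2*, *Gpi1* and *Eno1* was not analysed here. RNA was measured on 12 arrays, 1 per sample, in 3 groups of 4.

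The first group held medulloblastomas (MBs) from NdpKO;Ptch+/- mice, which lack the secreted ligand Norrin and carry 1 mutant copy of the Hedgehog receptor gene *Ptch*, on a strain background labelled mixed. The second held MBs from Ptch+/- mice labelled C57Bl/6, which carry the same *Ptch* mutation and are not NdpKO. The study states that controls came from the same breeding cohort, with Ndp+/- mothers, and included both sexes. A Ptch+/- female could thus carry 1 disrupted *Ndp* copy. The third held granule neuron progenitors (GNPs), the cells from which this tumor arises, purified from wild-type C57Bl/6 cerebella at postnatal day 6 by density gradient and pre-plating. The *Ndp* allele is a disruption by a cassette that contains *lacZ*. *Ndp* is X-linked and the crosses restricted the NdpKO;Ptch+/- genotype to males, while the sex of the other groups is not given in the labels, so for the X-linked genes *Pgk1* and *Pdk3* sex cannot be told apart from genotype. Strain label and *Ndp* genotype cannot be told apart, nor can tumor state, age and cell purification in the comparisons with GNPs. The labels give no age for the tumors. The study reports a shorter mean tumor latency in NdpKO;Ptch+/- mice, so age at collection may also differ between the tumor genotypes. The labels do not tie tumors to individual mice, and the p-values reflect only how far these samples spread. The study disrupted the Norrin/Fzd4 signal to endothelial cells, which acts on brain vessels, and asked how the loss alters the tumor and its stroma.

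Glycolysis splits glucose into pyruvate with a net gain of ATP, and lactate dehydrogenase turns pyruvate into lactate when respiration is short of oxygen or when growing cells use the pathway by preference. GNPs and Hedgehog-driven MBs are known for high aerobic glycolysis. At normal oxygen, prolyl hydroxylases of the Egln family mark HIF alpha subunits for destruction; at low oxygen HIF accumulates, binds the core motif ACGTG or GCGTG and induces glucose transporters, most glycolytic enzymes and pyruvate dehydrogenase kinases, which keep pyruvate out of the mitochondrion.

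Values are log2 signals that the authors had background-corrected and quantile-normalized, so a difference of 1 is a doubling and general differences between arrays cannot be seen. The floor lay near 4.1, and 4.5 was taken as the background limit. Pearson's r between arrays of a group was 0.984 to 0.996 over all probes. The *Ndp* probe read 4.12 to 4.16 in NdpKO;Ptch+/- MBs, 4.14 to 4.21 in Ptch+/- MBs and 4.14 to 4.21 in GNPs, under the limit on all 12 arrays, and could not check the genotype. Of 9 GNP markers, 7 were above background, among them *Zic1* at 13.6 to 14.3 on all arrays, while the defining marker *Atoh1* was under the limit on every array. Because the arrays hold bulk RNA, fewer cells of a type and less RNA per cell cannot be told apart.

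Of the 32 measured genes, 24 reached the background limit on at least 1 array and 8 stayed under it on all 12. The 8 were *Pfkfb3*, a kinase that activates phosphofructokinase, *Ldhb*, the heart form of lactate dehydrogenase, *Slc16a3*, a lactate exporter, *Bnip3*, a mitophagy receptor, *Car9*, a carbonic anhydrase, *Adm*, the vasodilator adrenomedullin, *Epas1*, an alpha subunit of HIF strong in endothelium, and *P4ha2*, a collagen prolyl hydroxylase. No fold is given for them. Of the 32, 12 had a single probe and 20 had several. RNA of near-identical copies or processed pseudogenes of *Gapdh*, *Pgk1*, *Ldha*, *Tpi1* and *Pgam1* could add to those probes, and their part was not tested.

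NdpKO;Ptch+/- MBs had more mRNA of the glycolytic enzymes *Ldha* and *Pgk1* than Ptch+/- MBs and less of the neuronal glucose transporter *Slc2a3*, with changes of 1.49-fold, 1.58-fold and 0.645-fold. These 3 of 32 genes passed limma's test at an adjusted p under 0.05, with 2 higher and 1 lower, while 13 had an unadjusted p under 0.05. Of all 45281 probes, 1.38% passed in this comparison. Among the 9305 genes above background in at least 1 of both groups, 1.6% were higher and 2.5% were lower in NdpKO;Ptch+/- MBs, against 8.33% and 4.17% of the 24 genes described here that were above background. Signals did not overlap between the tumor genotypes for 6 of these 24 genes, against 15.3% of the 9305. Passing the background limit can itself favour genes that differ, so these shares describe the genes and do not test the list.

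*Ldha* encodes the muscle form of lactate dehydrogenase, which makes lactate from pyruvate. Its log2 signal was 12.67, 12.98, 13.19 and 12.74 in NdpKO;Ptch+/- MBs, against 12.39, 12.30, 12.35 and 12.23 in Ptch+/- MBs. Every NdpKO;Ptch+/- MB lay above every Ptch+/- MB, by at least 0.28, and above every GNP sample, which read 12.35, 12.47, 12.41 and 12.29. The log2 fold change over Ptch+/- MBs was 0.58 ± 0.10 (SE, adjusted p = 0.0311). It no longer passed without replicate 2 of the NdpKO;Ptch+/- MBs (adjusted p = 0.0832), without any single Ptch+/- MB or without any single GNP array (adjusted p = 0.0513 to 0.0691), and the fold ran between 0.48 and 0.65 over all 12 omissions.

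*Pgk1*, on the X chromosome, encodes phosphoglycerate kinase, the first enzyme of the pathway that returns ATP. Its signal was 11.19, 11.69, 11.36 and 11.12 in NdpKO;Ptch+/- MBs and 10.87, 10.66, 10.44 and 10.76 in Ptch+/- MBs. The genotypes did not overlap, and the log2 fold change was 0.66 ± 0.13 (SE, adjusted p = 0.0458). GNPs, at 11.20, 11.38, 11.21 and 11.13, lay within the range of the NdpKO;Ptch+/- MBs. The call held without replicate 4 of the NdpKO;Ptch+/- MBs (adjusted p = 0.0441) and was lost without any one of the other 11 arrays (adjusted p = 0.0538 to 0.0971). The second brightest probe of *Pgk1*, near the background limit, averaged 4.76 in NdpKO;Ptch+/- MBs and 4.26 in Ptch+/- MBs and did not pass (adjusted p = 0.518).

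*Slc2a3* encodes GLUT3, the high-affinity glucose transporter of neurons. Its signal was 9.67, 9.64, 9.72 and 9.98 in NdpKO;Ptch+/- MBs, against 10.38, 10.48, 10.44 and 10.25 in Ptch+/- MBs. All 4 NdpKO;Ptch+/- MBs lay below all 4 Ptch+/- MBs and overlapped the GNPs, at 9.85, 9.88, 9.74 and 9.68. It fell by 0.63 ± 0.08 on the log2 scale (SE, adjusted p = 0.0078) and passed in each of the 12 omissions. In a model of the tumors alone, adjusted p was 0.0747 for *Slc2a3*, 0.164 for *Ldha* and 0.196 for *Pgk1*, so none of the 3 passed there. *Slc2a1*, which encodes GLUT1, the transporter of endothelium and most dividing cells, averaged 9.95 ± 0.22 in NdpKO;Ptch+/- MBs and 10.21 ± 0.27 in Ptch+/- MBs (SD, n = 4 each), which differ by -0.26 on the log2 scale with a 95% interval of -0.60 to 0.08 (adjusted p = 0.533).

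**Figure D1:**
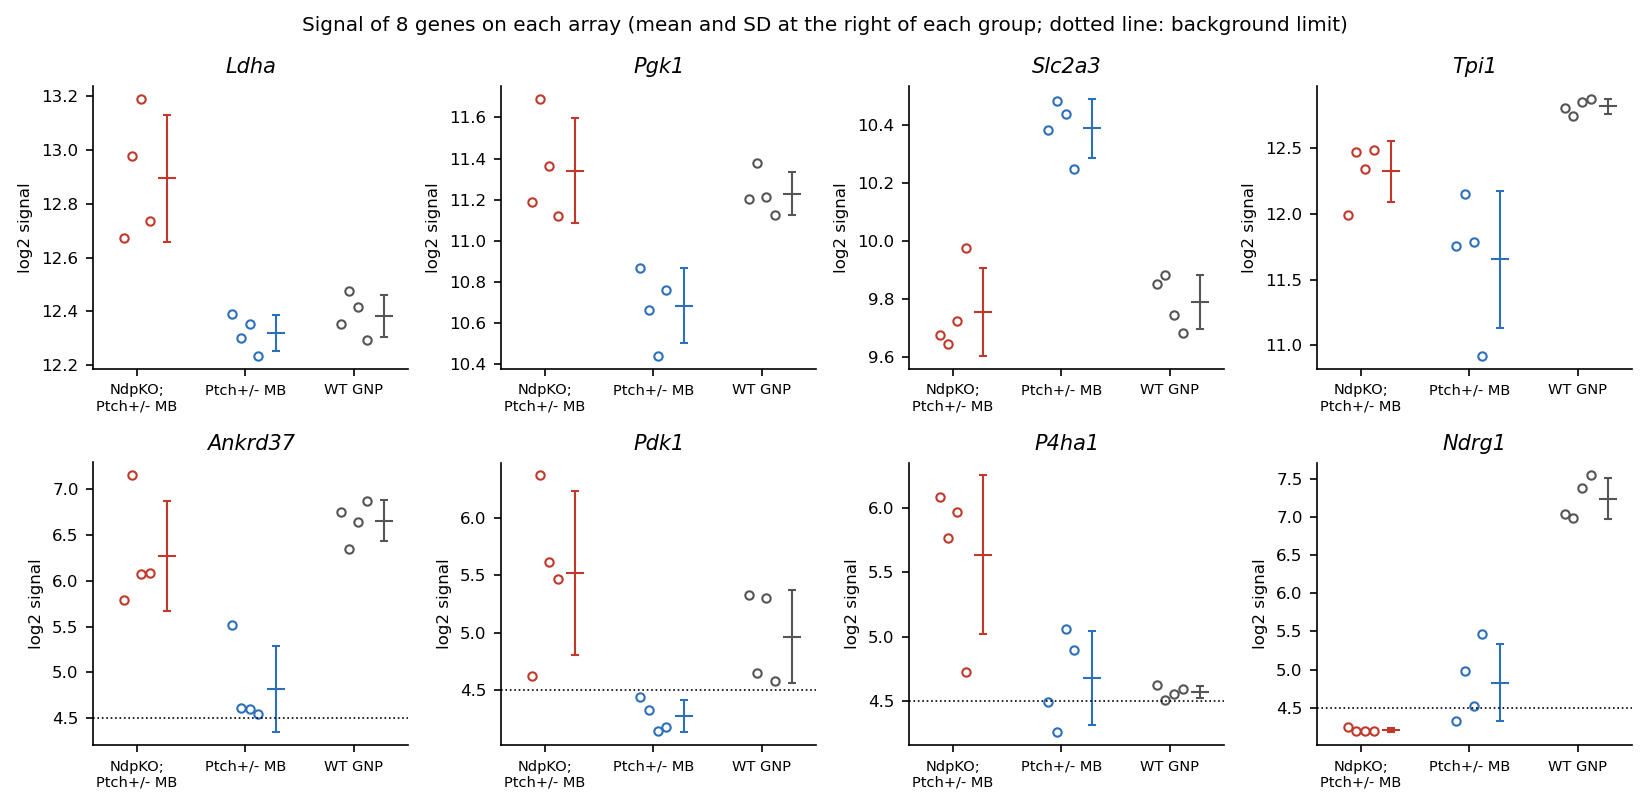
Log2 signal of 8 genes on each array (open circles), with the group mean and SD (n = 4) at the right of each group; NdpKO;Ptch+/- MB is left, Ptch+/- MB in the middle and WT GNP right, and the dotted line is the background limit of 4.5. *Ldha* and *Pgk1* are higher and *Slc2a3* lower in every NdpKO;Ptch+/- MB than in any Ptch+/- MB, and *Ndrg1* is under the limit in all 4 NdpKO;Ptch+/- MBs.

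The 4 largest differences that did not pass were all in genes that answer to hypoxia, and each had a wide spread among the 4 NdpKO;Ptch+/- MBs. *Ankrd37*, an ankyrin-repeat protein known as a direct HIF target, read 5.79, 7.15, 6.07 and 6.08 in NdpKO;Ptch+/- MBs and 5.52, 4.61, 4.60 and 4.54 in Ptch+/- MBs. The genotypes did not overlap, and the log2 fold change was 1.46 ± 0.32 (SE, adjusted p = 0.0625). It passed without replicate 1 of the Ptch+/- MBs (adjusted p = 0.0375), whose signal stood above the other 3, and when dim probes were left out (adjusted p = 0.0159). In the 11 other omissions adjusted p was 0.0717 to 0.142, and it was 0.239 in the tumors alone.

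*Pdk1* encodes a kinase that inactivates pyruvate dehydrogenase. The probe read 4.62, 6.37, 5.62 and 5.47 in NdpKO;Ptch+/- MBs, against 4.44, 4.33, 4.14 and 4.17 in Ptch+/- MBs, which were all under the background limit. Taking the limit for the dimmer group, the mean of the NdpKO;Ptch+/- MBs was 2.03-fold above it. This value allows for no spread between the tumors, and the *Pdk1* difference did not pass (adjusted p = 0.121). Without replicate 1 of the NdpKO;Ptch+/- MBs, the lowest of its group, adjusted p was 0.0395, and it was 0.0367 when dim probes were left out and 0.045 with a robust prior that follows intensity. It did not pass in the 11 other omissions (adjusted p = 0.158 to 0.232) or in the 5 other settings tried, where adjusted p reached 0.288.

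*Egln3* encodes a HIF prolyl hydroxylase that is itself induced by HIF. Its signal was 4.62, 6.98, 6.03 and 4.69 in NdpKO;Ptch+/- MBs, so that 2 tumors were high and 2 were near the 4.46, 4.70, 4.25 and 4.57 of the Ptch+/- MBs. Groups overlapped, with a log2 fold change of 1.09 ± 0.49 (SE, adjusted p = 0.391). *P4ha1*, which encodes a catalytic subunit of collagen prolyl hydroxylase, read 6.083, 5.764, 5.968 and 4.729 in NdpKO;Ptch+/- MBs and 4.496, 4.258, 5.059 and 4.896 in Ptch+/- MBs. Its log2 fold change was 0.96 ± 0.29 (SE, adjusted p = 0.167), and without replicate 4 of the NdpKO;Ptch+/- MBs, the only one that overlapped, it was 1.26 with an adjusted p of 0.0188. *P4ha1* did not pass in the 11 other omissions (adjusted p = 0.182 to 0.329) or in any of 7 other settings, where adjusted p reached 0.395.

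The 250 bases upstream of the start sites are shown for *Ldha*, *Pgk1* and *Ankrd37*, which are among the genes whose signals separated the tumor genotypes. They are also shown for the enzyme *Tpi1*, whose window holds no copy of the motif. They are RefSeq sequences on GRCm38.p6, written 5′ to 3′ on the strand of the gene, and capitals mark the HIF core motif ACGTG or GCGTG or its reverse complement. Matches on both strands can overlap, as they do in CACGTG.
Ldha, chr7:46845554-46845803, plus strand: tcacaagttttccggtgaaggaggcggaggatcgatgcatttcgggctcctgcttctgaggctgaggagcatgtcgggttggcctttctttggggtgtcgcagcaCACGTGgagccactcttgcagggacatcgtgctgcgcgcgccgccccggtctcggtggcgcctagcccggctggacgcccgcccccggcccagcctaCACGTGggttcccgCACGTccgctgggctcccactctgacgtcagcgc
Pgk1, chrX:106186850-106187099, plus strand: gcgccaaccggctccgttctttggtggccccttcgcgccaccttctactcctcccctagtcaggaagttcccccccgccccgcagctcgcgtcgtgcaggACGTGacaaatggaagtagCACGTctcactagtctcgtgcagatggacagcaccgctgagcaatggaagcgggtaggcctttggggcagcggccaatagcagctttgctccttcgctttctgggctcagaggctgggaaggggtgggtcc
Ankrd37, chr8:45999851-46000100, minus strand: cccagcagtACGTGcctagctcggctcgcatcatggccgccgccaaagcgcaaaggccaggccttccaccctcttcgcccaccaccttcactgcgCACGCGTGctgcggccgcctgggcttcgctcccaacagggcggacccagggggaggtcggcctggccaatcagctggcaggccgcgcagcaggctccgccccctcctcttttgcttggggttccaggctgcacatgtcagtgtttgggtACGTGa
Tpi1, chr6:124814159-124814408, minus strand: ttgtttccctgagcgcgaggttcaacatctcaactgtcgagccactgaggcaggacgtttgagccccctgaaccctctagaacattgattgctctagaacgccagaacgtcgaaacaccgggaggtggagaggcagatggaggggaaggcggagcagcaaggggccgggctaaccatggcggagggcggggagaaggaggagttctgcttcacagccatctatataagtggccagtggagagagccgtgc
The *Ldha* window, 1 of 2 listed for the gene, held 5 matches, all ACGTG, of which 3 began at positions -48, -47 and -34 from the start. The *Pgk1* window held 2 matches at positions -150 and -131, both ACGTG, and that of *Ankrd37* held 4, of which 2 were ACGTG. *Pdk1*, which also separated the tumor genotypes, is not shown, and its first listed window held 1 match, GCGTG at position -78. *Slc2a3* and *Ndrg1*, lower in NdpKO;Ptch+/- MBs without overlap, had no window in the sequences used. *Tpi1*, without a match, differed by 0.67 on the log2 scale between the tumor genotypes, against 0.66 for *Pgk1*, but did not pass. At least 1 match was present in the first listed window of 26 of the 32 genes with a window (81.2%), against 38.6% of all 32851 windows. For ACGTG alone the shares were 53.1% and 16.6%. The list includes genes chosen because low oxygen is known to induce them. All windows can hold several per gene and were not matched to the list in base composition, so the shares are no test. These 32 are the listed genes with a window, with or without a probe, and the motif was found for 11 of 16 glycolytic enzymes and 8 of 9 hypoxia-induced genes. A match describes the sequence only, and no binding was measured.

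Set out by role, most glycolytic enzymes had positive differences between the tumor genotypes and hypoxia-induced genes were divided; neither list was tested as a whole, nor was the difference between them. The median log2 fold change of 13 measured glycolytic enzymes was 0.38, against 0.00 over all 19057 genes, and 10 of the 12 enzymes above background (83.3%) had a positive value, against 52.5% of all genes above background. For 15 further glycolysis and pyruvate genes above background, taken up below, the median was 0.002 and 8 (53.3%) were positive, so these further genes did not share the positive median of the enzymes. Only *Ldha* and *Pgk1* of the enzymes passed. For 10 measured hypoxia-induced genes the median was 0.01, with 4 of them under background on every array, and the 6 others had a median of 0.27 with 3 positive and 3 negative values. The negative values were -0.43 for *Egln1*, -0.62 for *Ndrg1* and -0.78 for *Car12*. The second probe of *Egln1* had a value of 0.51 (adjusted p = 0.576). *Ndrg1* was under the limit in every NdpKO;Ptch+/- MB, and *Car12* was above it on 1 Ptch+/- array only. None of the 10 passed, while 4 had an unadjusted p under 0.05. The median of the enzymes ran between 0.28 and 0.45 when arrays were left out in turn.

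The other enzymes did not pass. *Tpi1*, triosephosphate isomerase, averaged 12.32 ± 0.23 in NdpKO;Ptch+/- MBs and 11.65 ± 0.52 in Ptch+/- MBs (SD, n = 4 each), a difference of 0.67 with an adjusted p of 0.225. The log2 fold changes of *Pgam1*, phosphoglycerate mutase, of *Pfkm*, a phosphofructokinase, and of *Aldoa*, the main aldolase, were 0.40, 0.42 and 0.38 with adjusted p-values of 0.232, 0.401 and 0.237. *Gapdh*, which feeds electrons to NADH and often serves as a reference gene, had a value of -0.18 with a 95% interval of -0.34 to -0.03 (adjusted p = 0.285). *Eno2*, the neuronal enolase, had a value of -0.31 with a wide interval of -1.61 to 0.98 (adjusted p = 0.903).

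**Figure D2:**
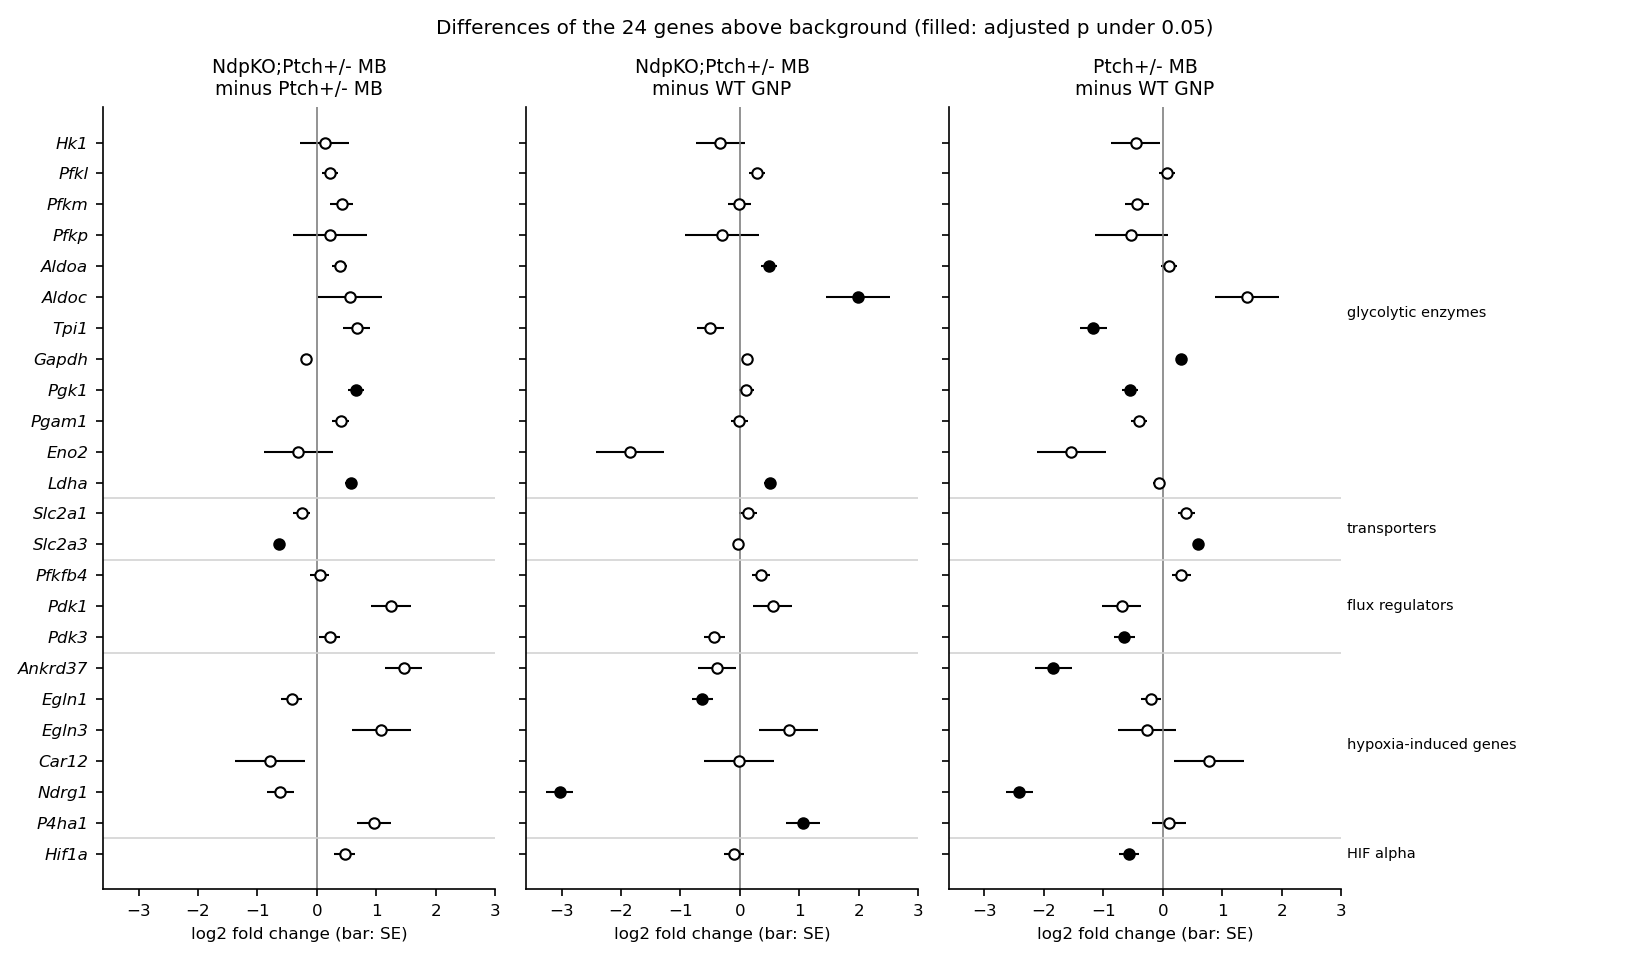
Fitted log2 fold change (points) and its SE (bars) of the 24 genes above background, grouped by role, for NdpKO;Ptch+/- MB minus Ptch+/- MB, NdpKO;Ptch+/- MB minus WT GNP and Ptch+/- MB minus WT GNP; filled points passed at an adjusted p under 0.05. Between the tumor genotypes only *Pgk1*, *Ldha* and *Slc2a3* are filled, and *Pdk1*, *Car12* and *Ndrg1* include groups under background, where the fitted value is no bound.

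Tumors of the same genotype differed in which genes they held high. For each gene and array, the deviation from the gene's mean over the 12 arrays was taken, and its median over the 12 enzymes above background was -0.03, 0.22, 0.29 and 0.21 in the NdpKO;Ptch+/- MBs, 0.04, -0.22, -0.22 and -0.31 in the Ptch+/- MBs and 0.06, 0.04, 0.00 and -0.02 in the GNPs. Replicate 1 of the NdpKO;Ptch+/- MBs lay below replicate 1 of the Ptch+/- MBs, so the tumor genotypes overlapped, and the GNPs had the smallest spread. For the 6 hypoxia-induced genes above background the medians were -0.29, 0.28, -0.05 and -0.24 in NdpKO;Ptch+/- MBs, against -0.43, -0.35, -0.48 and -0.11 in Ptch+/- MBs and 0.15, 0.22, -0.13 and 0.15 in GNPs. Replicate 2 of the NdpKO;Ptch+/- MBs held the highest signal of its group for *Pfkl*, *Pgk1*, *Pdk1*, *Ankrd37*, *Egln3* and *Hif1a*. The same tumor was the lowest of its group for 8 of 22 genes. Replicate 3 was highest for 6, among them *Ldha*, *Aldoa* and *Aldoc*, and lowest for 0. Replicate 4 was highest for 8 and lowest for 4, and replicate 1 was highest for 2 and lowest for 10.

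**Figure D3:**
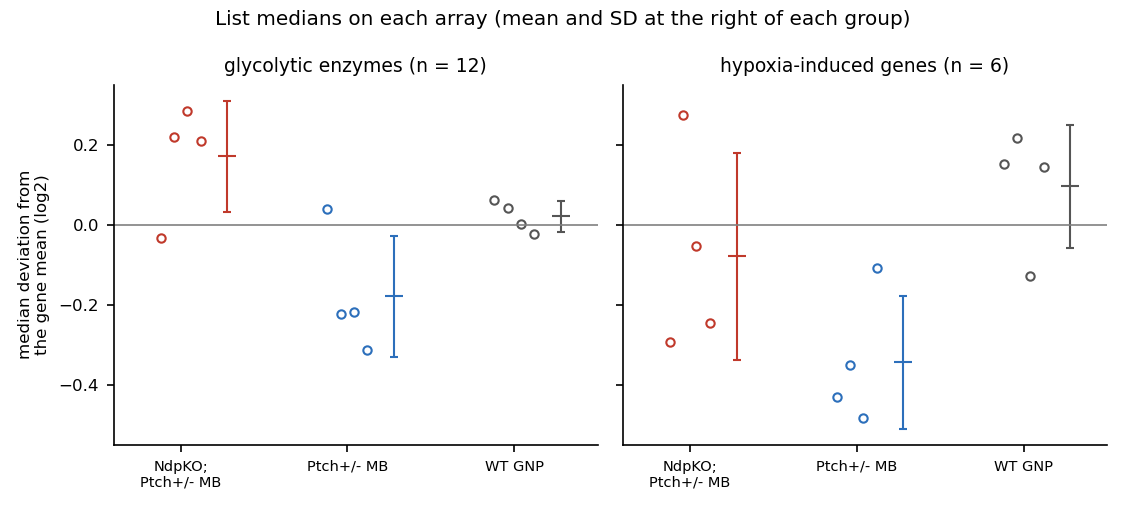
Median over a list of the log2 signal minus the gene's mean over 12 arrays, for each array (open circles) with mean and SD of the 4 arrays, in NdpKO;Ptch+/- MB (left), Ptch+/- MB (middle) and WT GNP (right). The 12 glycolytic enzymes sit at 0.21 to 0.29 in 3 NdpKO;Ptch+/- MBs and at -0.22 to -0.31 in 3 Ptch+/- MBs, and the 4 GNP samples lie near 0.

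**Figure D4:**
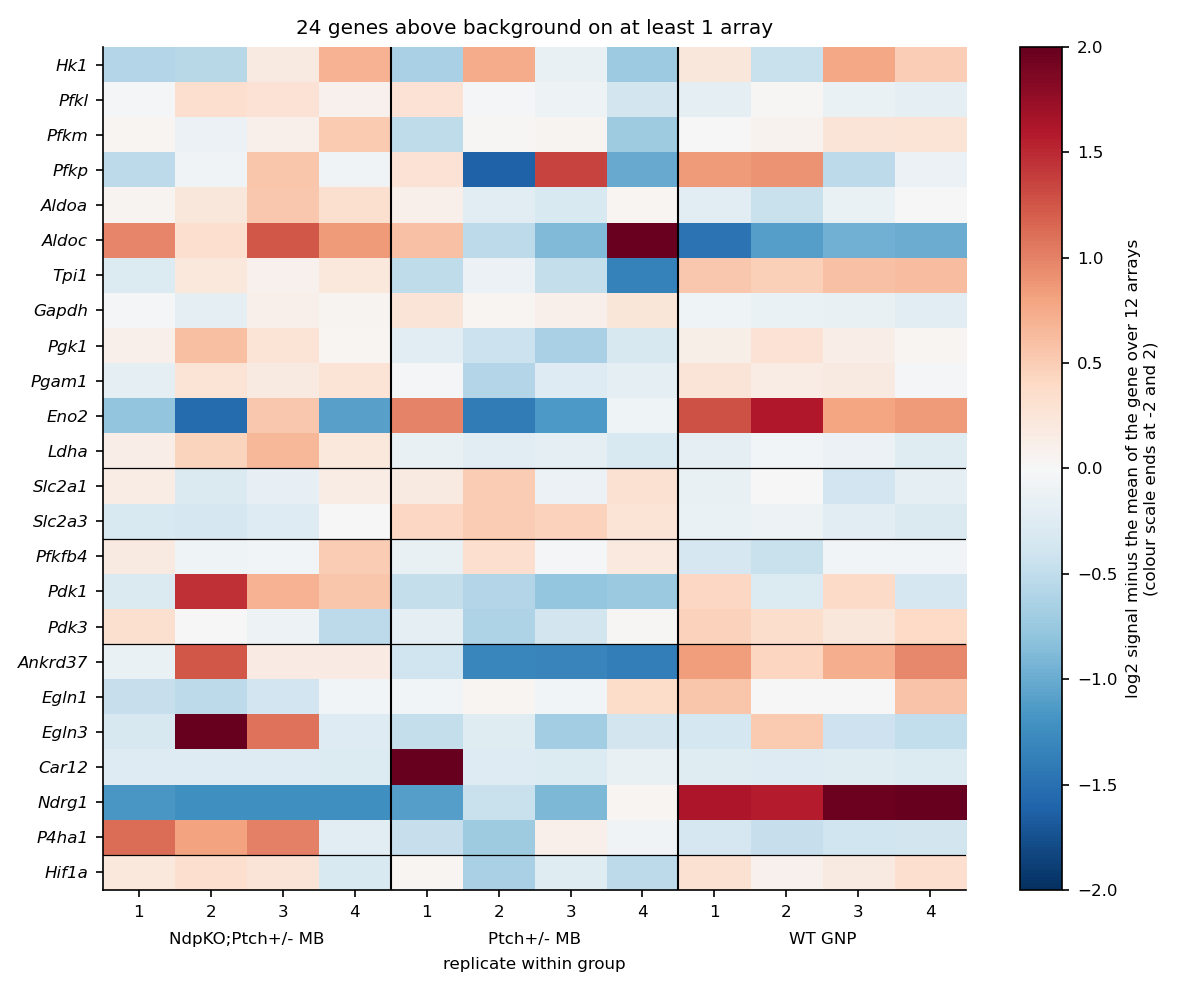
Log2 signal of the 24 genes above background minus each gene's mean over the 12 arrays, with red above and blue below the mean and the colour scale ending at -2 and 2; columns are replicates 1 to 4 of NdpKO;Ptch+/- MB, Ptch+/- MB and WT GNP, and lines separate the roles. Replicate 2 of the NdpKO;Ptch+/- MBs is red for *Pdk1*, *Ankrd37* and *Egln3*, *Car12* is red on 1 Ptch+/- array, and *Ndrg1* is red in GNPs.

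Markers of blood and vessels had higher sums in most NdpKO;Ptch+/- MBs than in Ptch+/- MBs. Erythroid markers, of which 2 of 5 measured were above background, summed to 2317 to 14294 signal units in NdpKO;Ptch+/- MBs, 177 to 3324 in Ptch+/- MBs and 4615 to 17344 in GNPs. *Hba-a1*, alpha globin, read 10.18, 10.81, 12.69 and 11.43 in NdpKO;Ptch+/- MBs and 6.99, 10.15, 10.63 and 6.15 in Ptch+/- MBs, a difference that did not pass (adjusted p = 0.27). The erythroid genes *Alas2*, *Slc4a1* and *Epb42* were under the limit on all arrays. Endothelial markers, of which 10 of 12 were above background with *Kdr* and *Tie1* under it, summed to 3550 to 5461 in NdpKO;Ptch+/- MBs, 2724 to 4067 in Ptch+/- MBs and 5079 to 7457 in GNPs. *Emcn*, endomucin, was higher in NdpKO;Ptch+/- MBs by 1.95 on the log2 scale (adjusted p = 0.0321), at 8.57, 9.35, 9.41 and 8.93 against 8.16, 6.33, 6.80 and 7.17 in Ptch+/- MBs. It was the only endothelial marker called, and of the 10 above background 7 had positive and 3 negative differences, the negative ones being -0.01 for *Cldn5*, -0.59 for *Slco1a4* and -0.84 for *Ly6c1*. The part of these cells in the differences of *Ldha*, *Pgk1* and the other enzymes was not tested.

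**Figure D5:**
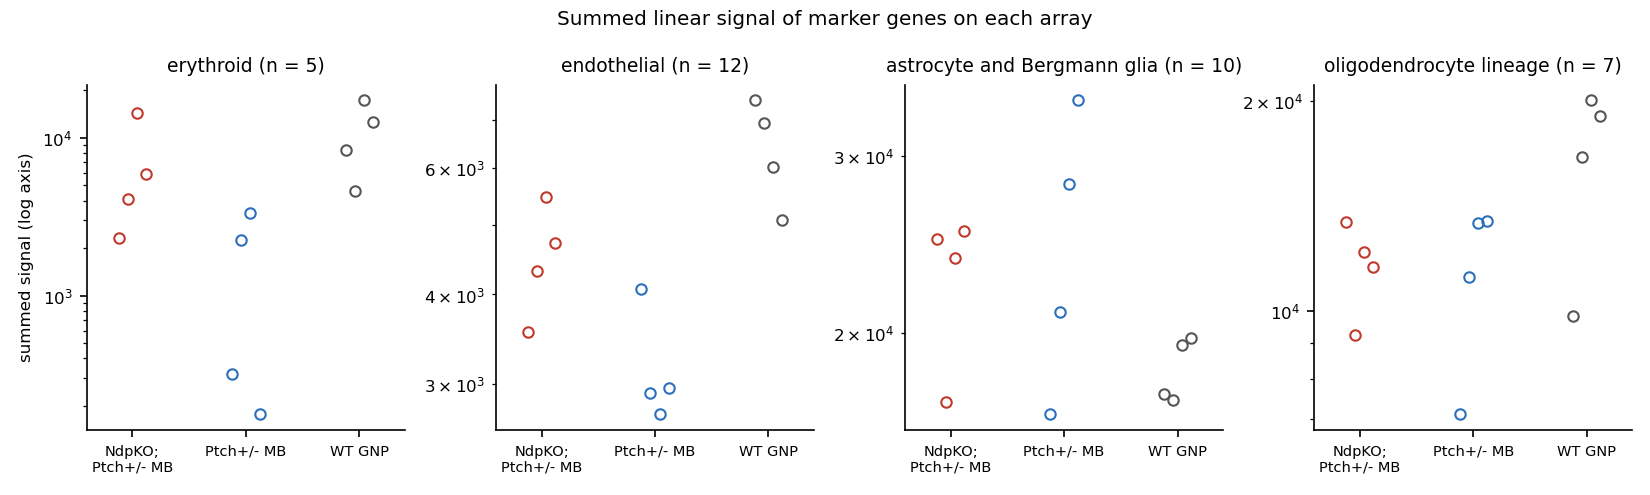
Summed linear signal (log axis) of marker genes of 4 cell types on each array in NdpKO;Ptch+/- MB (left), Ptch+/- MB (middle) and WT GNP (right), 1 circle per array; n is the number of markers with a probe. Erythroid sums reach 177 at the lowest in Ptch+/- MBs and 17344 at the highest in GNPs. Oligodendrocyte sums are 16596 to 20025 in 3 GNP samples, 9841 in replicate 1 of the GNPs and at most 13475 in the tumors. Bright markers weigh most, *Slc1a3* for astrocytes, and for the oligodendrocyte lineage *Olig1* in tumors and *Mbp* in GNPs.

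Against GNPs, NdpKO;Ptch+/- MBs had higher *Ldha*, *Aldoa*, *Aldoc* and *P4ha1* and lower *Ndrg1* and *Egln1*. Of 32 genes, 5 were higher and 2 lower by limma's test, the fifth being *Ldhb*, which was under background in both groups and is left aside. In this comparison 12.4% of all probes passed, and among 9400 genes above background in at least 1 of both groups 14.8% were higher and 13.4% lower, against 17.4% and 8.7% of the 23 genes described here. Signals did not overlap for 8 of the 23, against 40.2% of the 9400. These shares are near those of all genes or below them.

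*Ndrg1*, a gene induced by hypoxia and differentiation and strong in myelinating glia, was under the background limit in every NdpKO;Ptch+/- MB, at 4.25, 4.20, 4.19 and 4.19, against 7.04, 6.99, 7.39 and 7.55 in GNPs. The group means were 4.21 and 7.24, and it was at least 6.68-fold lower in NdpKO;Ptch+/- MBs (adjusted p = 2.92e-05). Its second probe had the same direction, at least 5.66-fold lower (adjusted p = 1.34e-08). Ptch+/- MBs read 4.33, 4.98, 4.52 and 5.47, so 3 of 4 were above the limit and the genotypes did not overlap, with an adjusted p of 0.27 between the tumors.

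Some oligodendrocyte markers were lower in both tumor groups than in GNPs, as *Ndrg1* was, and others were not. *Mag*, myelin-associated glycoprotein, read 4.36, 4.36, 5.56 and 4.25 in NdpKO;Ptch+/- MBs and 4.22, 4.22, 4.24 and 4.46 in Ptch+/- MBs, against 10.42, 11.50, 11.80 and 11.58 in GNPs. All 7 measured markers of the lineage were above background on some array, and their sums were 9235 to 13418 in NdpKO;Ptch+/- MBs, 7119 to 13475 in Ptch+/- MBs and 9841 to 20025 in GNPs. The brightest marker was *Olig1* in the tumors, at 12.68 to 13.57, and *Mbp* in GNPs, at 12.38 to 13.31. The sums thus rest on different genes and do not show a like content of oligodendrocyte RNA. The sum of 9841 was that of replicate 1 of the GNPs, where *Ndrg1* read 7.04. Of the 7, 4 were lower in each tumor group than in GNPs, namely *Mbp*, *Mag*, *Mog* and *Cnp*. *Olig1* was higher, by 1.58 in NdpKO;Ptch+/- MBs and 1.57 in Ptch+/- MBs on the log2 scale. *Sox10*, at -0.03 and -0.12, and *Olig2* were not called. The part of oligodendrocyte RNA in the *Ndrg1* signal was not tested.

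*Aldoc*, the brain aldolase of astrocytes and Purkinje cells, read 10.71, 10.06, 10.97 and 10.58 in NdpKO;Ptch+/- MBs, against 8.26, 8.63, 8.77 and 8.73 in GNPs. No value overlapped, and the log2 fold change was 1.98 ± 0.54 (SE, adjusted p = 0.0394). Ptch+/- MBs read 10.31, 9.21, 8.86 and 11.70, a range that held both the highest tumor value and 1 close to the GNPs (log2 fold change over GNPs 1.42, adjusted p = 0.106). Astrocyte and Bergmann glia markers, all 10 above background, summed to 17088 to 25280 in NdpKO;Ptch+/- MBs, 16618 to 34050 in Ptch+/- MBs and 17183 to 19785 in GNPs. Replicate 4 of the Ptch+/- MBs, with the highest *Aldoc*, had the highest sum and alone had *S100b* above background, at 6.22. Replicate 3 of the Ptch+/- MBs had the lowest *Aldoc* of its group, 8.86, with a sum of 28128. Replicate 1 had the lowest sum, 16618, with *Aldoc* at 10.31. The sums add linear signals, so the brightest marker, *Slc1a3*, weighed most in them. It read 13.53, 13.97, 14.28 and 14.48 in the Ptch+/- MBs. The part of astrocytes was not tested.

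*Ldha* was higher in NdpKO;Ptch+/- MBs than in GNPs by 0.51 ± 0.10 (SE, adjusted p = 0.00983), and passed without any single array. *Aldoa*, at 10.62, 10.80, 11.11 and 10.88 in NdpKO;Ptch+/- MBs and 10.36, 10.12, 10.43 and 10.55 in GNPs, was higher by 0.49 ± 0.13 (SE, adjusted p = 0.0397). *P4ha1* was higher by 1.07 ± 0.29 (SE, adjusted p = 0.0373), with GNPs at 4.62, 4.51, 4.56 and 4.59, just over the limit. *Egln1*, the main oxygen-sensing prolyl hydroxylase, read 5.57, 5.51, 5.64 and 5.98 in NdpKO;Ptch+/- MBs and 6.57, 6.03, 6.02 and 6.59 in GNPs. It fell by 0.63 ± 0.17 (SE, adjusted p = 0.0402), while its second probe had a value of 0.11 (adjusted p = 0.882).

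The calls of *Aldoa*, *Aldoc*, *P4ha1* and *Egln1* against GNPs lay near the threshold, unlike those of *Ldha* and *Ndrg1*, which passed in every omission. *Aldoa* was lost without replicate 2, 3 or 4 of the NdpKO;Ptch+/- MBs, replicate 2 of the Ptch+/- MBs or replicate 1, 2 or 3 of the GNPs (adjusted p = 0.0513 to 0.1). *Aldoc* was lost without any NdpKO;Ptch+/- MB, replicate 1 of the Ptch+/- MBs or any GNP array (adjusted p = 0.0513 to 0.1). *P4ha1* was lost without replicate 1, 2 or 3 of the NdpKO;Ptch+/- MBs, replicate 1 of the Ptch+/- MBs or any GNP array (adjusted p = 0.052 to 0.102). *Egln1* was lost without replicate 1, 2 or 3 of the NdpKO;Ptch+/- MBs or of the Ptch+/- MBs, or replicate 1 or 4 of the GNPs (adjusted p = 0.0534 to 0.106).

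Against the same GNPs, Ptch+/- MBs had lower *Ndrg1*, *Ankrd37*, *Tpi1*, *Pdk3*, *Hif1a* and *Pgk1* and higher *Slc2a3* and *Gapdh*. Of 32 genes, 6 were lower and 3 higher, again with *Ldhb* as one under background. In this comparison 17.3% of all probes passed, and among 9528 genes above background in at least 1 of both groups 18.8% were higher and 18.2% lower, against 8.33% and 25% of the 24 genes described here. Signals did not overlap for 10 of the 24, against 46.9% of the 9528. The share higher was below that of all genes and the share lower above it. The GNP samples are shared with the comparison of NdpKO;Ptch+/- MBs, so agreement between the comparisons is not independent.

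*Ankrd37* fell by 1.84 ± 0.32 on the log2 scale in Ptch+/- MBs (SE, adjusted p = 0.00326), with GNPs at 6.76, 6.35, 6.64 and 6.88, all above the 4 Ptch+/- MBs. For NdpKO;Ptch+/- MBs the *Ankrd37* difference from GNPs was -0.38 with an adjusted p of 0.514, and the groups overlapped. *Ndrg1* fell by 2.41 ± 0.23 (SE, adjusted p = 9.32e-05) in Ptch+/- MBs. Both calls held without any single array.

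*Tpi1* read 11.75, 12.15, 11.79 and 10.92 in Ptch+/- MBs, against 12.80, 12.75, 12.85 and 12.88 in GNPs. It fell by 1.17 ± 0.23 (SE, adjusted p = 0.00644), and its other probes gave values of -1.22 and -1.44 with adjusted p-values of 0.004 and 0.018. *Pgk1* fell by 0.55 ± 0.13 (SE, adjusted p = 0.0177), a call lost without replicate 2 of the GNPs (adjusted p = 0.052). *Gapdh* went the other way, at 13.68, 13.45, 13.52 and 13.66 in Ptch+/- MBs and 13.32, 13.27, 13.27 and 13.21 in GNPs, a rise of 0.31 ± 0.07 (SE, adjusted p = 0.013) that held without any single array.

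*Slc2a3* was higher by 0.60 ± 0.08 in Ptch+/- MBs than in GNPs (SE, adjusted p = 0.000849), without overlap and in every omission. *Pdk3*, an X-linked pyruvate dehydrogenase kinase, read 7.91, 7.49, 7.74 and 8.12 in Ptch+/- MBs and 8.56, 8.45, 8.33 and 8.50 in GNPs, and fell by 0.65 ± 0.18 (SE, adjusted p = 0.0338). The *Pdk3* call was lost without replicate 1, 2 or 3 of the Ptch+/- MBs or any GNP array (adjusted p = 0.0532 to 0.0846). *Hif1a*, the oxygen-regulated alpha subunit whose control is mainly at the protein, read 7.83, 7.14, 7.54 and 7.26 in Ptch+/- MBs and 8.08, 7.86, 7.97 and 8.12 in GNPs. NdpKO;Ptch+/- MBs, at 7.99, 8.12, 8.04 and 7.48, overlapped both groups and differed from Ptch+/- MBs by 0.47 (adjusted p = 0.271). In Ptch+/- MBs *Hif1a* fell by 0.57 ± 0.17 (SE, adjusted p = 0.0498), a call kept only without replicate 4 of the NdpKO;Ptch+/- MBs or replicate 1 of the Ptch+/- MBs and otherwise lost (adjusted p = 0.0549 to 0.121).

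By role, the median log2 fold change of the 13 measured glycolytic enzymes was 0.04 in NdpKO;Ptch+/- MBs and -0.41 in Ptch+/- MBs over GNPs, against 0.00 for all genes in both. Without replicate 2 of the Ptch+/- MBs the second median was -0.07. Hypoxia-induced genes had medians of -0.01 and -0.05, or -0.19 and -0.23 over the 6 above background. Microglia and macrophage markers, 7 of 9 above background, summed to 3146 to 5675 in NdpKO;Ptch+/- MBs and 3563 to 7936 in Ptch+/- MBs, against 649 to 974 in GNPs, and their part in these differences was not tested.

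The brightest probes of the remaining genes above background did not pass in any comparison. *Pfkl*, *Pfkfb4* and *Slc2a1* had SDs of 0.10 to 0.27 in each group. *Pfkp*, the platelet-type phosphofructokinase, ran between 4.91 and 7.88 within the Ptch+/- MBs. *Hk1*, the main brain hexokinase, did not pass by its brightest probe, but its second probe, close to the limit, was under it in both tumor groups and at least 1.26-fold lower than in GNPs in each (adjusted p = 0.0103 for NdpKO;Ptch+/- MBs and 0.0052 for Ptch+/- MBs). The third probe of *Pfkm* had a difference of -1.35 on the log2 scale between Ptch+/- MBs and GNPs (adjusted p = 0.0191). *Eno2* read 6.68, 5.92, 8.01 and 6.38 in NdpKO;Ptch+/- MBs and 8.74, 9.07, 8.26 and 8.32 in GNPs, without overlap but with an adjusted p of 0.0692. *Car12*, a carbonic anhydrase, was above background on 1 array only, replicate 1 of the Ptch+/- MBs, at 7.15.

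Other genes of these pathways gave 3 calls between the tumor genotypes, all lower in NdpKO;Ptch+/- MBs. They were taken from lists of known members, which were set with earlier results of these data known. Of 32 measured among 37 further glycolysis and pyruvate genes, 0 were higher and 1 lower in NdpKO;Ptch+/- MBs, *Slc2a8*, which encodes the transporter GLUT8. It read 5.15, 4.62, 4.46 and 4.71 in NdpKO;Ptch+/- MBs and 5.58, 5.32, 5.46 and 5.65 in Ptch+/- MBs, without overlap and with a difference of -0.77 (adjusted p = 0.0402). Of 34 measured among 35 further HIF pathway genes, 0 were higher and 2 lower. Of those above background, 1 of 15 glycolysis genes (6.67%) and 2 of 26 HIF pathway genes (7.69%) were lower, against 2.5% of all genes above background, and counts this small were not tested as lists. *Tfrc*, the transferrin receptor, read 11.04, 10.86, 10.28 and 10.06 in NdpKO;Ptch+/- MBs and 11.85, 12.19, 11.51 and 11.48 in Ptch+/- MBs, a difference of -1.20 (adjusted p = 0.0386). *Bhlhe40*, a transcriptional repressor induced by hypoxia, read 7.27, 7.13, 7.60 and 7.16 in NdpKO;Ptch+/- MBs and 8.17, 8.34, 9.01 and 9.30 in Ptch+/- MBs, a difference of -1.42 (adjusted p = 0.0211). For both genes every NdpKO;Ptch+/- MB lay below every Ptch+/- MB.

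Against GNPs, 1 further glycolysis gene was higher and 1 lower in NdpKO;Ptch+/- MBs, and 3 were higher and 1 lower in Ptch+/- MBs. For further HIF pathway genes the counts were 1 higher and 4 lower in NdpKO;Ptch+/- MBs and 4 higher and 8 lower in Ptch+/- MBs. Above background, 3.7% of the further HIF pathway genes were higher and 14.8% lower in NdpKO;Ptch+/- MBs, against 14.8% and 13.4% of all genes, and 15.4% were higher and 26.9% lower in Ptch+/- MBs, against 18.8% and 18.2%. For further glycolysis genes the shares were 6.67% and 6.67% in NdpKO;Ptch+/- MBs and 13.3% and 6.67% in Ptch+/- MBs, all below those of all genes. *Stc1*, the secreted protein stanniocalcin, had means of 4.74 in NdpKO;Ptch+/- MBs and 4.19 in Ptch+/- MBs, against 8.48 in GNPs. Its log2 fold change was -3.74 in NdpKO;Ptch+/- MBs (adjusted p = 5.52e-05) and at least 15.8-fold lower in Ptch+/- MBs (adjusted p = 1.63e-05). *Ak4*, a mitochondrial adenylate kinase, was under background in both tumor groups and at 5.93, 4.81, 6.82 and 7.40 in GNPs, at least 3.34-fold lower in each. *Pcx*, pyruvate carboxylase, averaged 5.67 in NdpKO;Ptch+/- MBs and was under background in GNPs, at least 2.26-fold higher (adjusted p = 0.00507), and *Bhlhe40* differed by -1.26 on the log2 scale (adjusted p = 0.00618). In Ptch+/- MBs *Pam*, a peptide-amidating enzyme, had a log2 fold change over GNPs of -1.63 (adjusted p = 0.0295), and *Siah2*, a ubiquitin ligase that acts on Egln proteins, one of -1.33 (adjusted p = 0.0028). Of the calls in Ptch+/- MBs, 2 were genes under background in both groups, *Hk3* and *Ero1l*.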

How the data were processed

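RNA from 4 NdpKO;Ptch+/- MBs, 4 Ptch+/- MBs and 4 WT GNP samples was hybridised to Illumina MouseWG-6 v2.0 BeadChips. The authors deposited log2 signals. They had used neqc in limma, which subtracts a background estimated on negative control beads, adds an offset and quantile-normalizes; its version is not given in the sources used here. The table held 45281 probes, of which 34885 have 1 gene symbol in the platform annotation, and symbols were matched through current names. Groups were compared with lmFit and eBayes of limma 3.58.1 in R 4.3.3, in 1 group-means model over 12 arrays, with p adjusted by Benjamini-Hochberg over all probes in each comparison and a threshold of 0.05. Where all arrays of the dimmer group were under a log2 signal of 4.5, a bound replaces the fold (mean of the brighter group against that limit). The bound allows for no spread within the brighter group. Upstream windows of 250 bases come from RefSeq (GRCm38.p6).

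Per-array values are printed for genes called between the tumor genotypes, for the 4 largest uncalled ones, and for up to 8 called against GNPs. The genes, lists, limit and tests were chosen with earlier results of these data known. The model was tested on simulated data. Alternatives were another centring, array weights, removal of dim probes, a robust prior that follows intensity, the mean of a gene's probes, the replicate block, a threshold of 0.01, the 2 compared groups alone and each array left out; one more, leaving genes under background in both groups uncounted, was added after seeing the data. The number of arrays limits the precision.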

Additional observations from a re-analysis of the deposited data

Results flagged for a closer look

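In 68 groups of 4 arrays with a gene above background, 3 held an array whose distance from the others exceeded Dixon's 95% critical value, and chance flags about 1 in 20 groups. *Ankrd37* read 5.521 in replicate 1 of the Ptch+/- MBs, against 4.539 to 4.607 in the others. *Egln3* read 5.478 in replicate 2 of the GNPs, against 4.451 to 4.59. *Car12* read 7.146 in replicate 1 of the Ptch+/- MBs, against 4.129 to 4.248.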

How the results depend on the processing

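No alternative turned the direction of the 21 single-gene results examined (17 called, 4 not). Of the 17 called, 8 passed in all 12 omissions of 1 array and 9 did not. Between the tumor genotypes, the 2 genes higher became 4 when dim probes were left out and 4 with an intensity trend and robust prior, 0 at a threshold of 0.01 and 0 with both tumor groups alone; the 1 gene lower became 0 with the tumors alone. Omitting arrays gave 0 to 3 higher and 1 lower. For NdpKO;Ptch+/- MBs against GNPs, the 5 higher became 1 at 0.01, 3 in the 2 groups alone and 1 to 5 on omission, and the 2 lower became 1 with the mean of a gene's probes, 1 at 0.01 and 1 to 3 on omission. For Ptch+/- MBs against GNPs, the 3 higher became 1 at 0.01 and 3 to 5 on omission, and the 6 lower 3 at 0.01 and 3 to 7 on omission. Leaving genes under background uncounted took 1 from each count of higher genes against GNPs.

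The median of glycolytic enzymes in Ptch+/- MBs over GNPs was -0.26 with the mean of a gene's probes and -0.411 to -0.069 on omission. Without dim probes, the median of hypoxia-induced genes was 0.267 between tumors, -0.195 for NdpKO;Ptch+/- MBs and -0.235 for Ptch+/- MBs over GNPs. Causes were not tested, except that fewer probes or arrays enter some settings.

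Replicate numbers are shared by name only. Deviations of same-numbered arrays correlated at -0.178 to 0.107, over 12 pairs, and 1 array correlated best with its own number. With the replicate block, 0 genes were higher and 0 lower between tumors, 1 higher and 2 lower in NdpKO;Ptch+/- MBs, and 3 higher and 4 lower in Ptch+/- MBs over GNPs.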
